A study of Mus musculus with 30 samples.

Results

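The mammary basal cells of mice that had been through pregnancy, lactation and involution (parous) were compared with those of mice that had never been pregnant (virgin), in control animals with intact Rank. The members are the 7 basal libraries of K8imTmG mice among the 30 libraries of the series. They were chosen by lineage, stage and genotype as labelled, and come from 4 parous mice (532, 534, 557 and 558) and 3 virgin mice (531, 538 and 568), 1 library per mouse. The question is what a completed cycle of lactation and regression leaves behind in the basal layer when Rank has not been touched.

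All 7 animals carried the alleles that the labels write as K8rta, TETO CRE and mTmG. In these mice the Krt8 promoter drives a doxycycline-dependent activator, so that Cre acts in luminal cells and switches the mTmG reporter there to green fluorescence. The Rank floxed allele is absent, and the basal cells studied here are not the target of Krt8-driven recombination. The labels give every animal, virgin or parous, doxycycline at 1 mg/ml in its drinking water between the ages of 3 and 8 weeks, whereas the study's methods give a later start. Basal cells were sorted as CD49f-high, CD24-low cells after removal of CD45+ blood and CD31+ endothelial cells, and RNA was read from its 3′ end. The study describes its virgin mice as age-matched, and the labels give neither ages nor sorting or sequencing days.

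Basal cells form the outer layer of the mammary epithelium. Most are myoepithelial: they carry the keratins Krt5 and Krt14, depend on the transcription factor Trp63, and contract under oxytocin through smooth-muscle proteins to expel milk. Milk itself is made by the inner luminal cells, in which prolactin acts through Stat5 to switch on the casein genes. During involution most of the milk-producing epithelium dies, stroma and fat fill the space, and the gland returns to an architecture close to that of a virgin gland.

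Recovered reads, one per sequenced molecule after removal of duplicates, numbered 340445 to 1172427 in the virgin and 450064 to 1365008 in the parous libraries. Depth overlapped between the groups only through virgin mouse 531. Virgin mice 538 (437873 reads) and 568 (340445 reads) were shallower than every parous library. One read was worth 1.14 to 5.43 normalized counts, and values under about 16 in mouse 568, the shallowest library, stand for at most 3 reads. Clec2d, a gene whose level divides the libraries of the series, lay between 72.8 and 199 normalized counts in all 7. Replicates differed by more than counting noise in every pair (chi-square at least 2.84 times its degrees of freedom), so none was the same library deposited again. The mice are numbered individually, and the tests below rest on the spread between them.

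Defining genes of basal cells were abundant in all 7 libraries, and their levels overlapped between virgin and parous mice. Krt5 stood at 1079, 1244 and 1310 normalized counts in the virgin libraries (mice 531, 538 and 568) and at 1147, 1244, 1461 and 1154 in the parous libraries (mice 532, 534, 557 and 558). Acta2, smooth-muscle actin, stood at 5273, 3307 and 5005 in virgin and at 5042, 4796, 4013 and 4072 in parous libraries. Trp63 was read at 188, 165 and 239 against 172, 225, 155 and 232, and Krt14 at 2366, 2137 and 3418 against 2187, 1883, 2305 and 2150. The groups overlapped for all 4 genes, and their log2 differences of 0.05 (SE 0.17), 0.01 (SE 0.22), -0.02 (SE 0.22) and -0.28 (SE 0.20), in the order Krt5, Acta2, Trp63, Krt14, did not pass the test. Here and below a log2 difference is the parous mean minus the virgin mean of log2(normalized count + 1). For genes with few counts this scale can understate or overstate the change.

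Across 10538 genes, limma called 0 (0%) at an adjusted p below 0.05. The lowest adjusted p was 0.10, shared by Csn1s1 and AC160336.1, and 969 genes had an unadjusted p below 0.05, of which 432 (4.1%) were higher and 537 (5.1%) lower in parous mice. The tests on recovered reads called more: DESeq2 called 7 higher (0.0805% of the 8696 genes to which it gave an adjusted p) and 37 lower (0.425%), and edgeR called 1 higher (0.00949%) and 7 lower (0.0664%). All 8 edgeR calls were among the 44 of DESeq2. In 35 of the 44, the parous and virgin libraries did not overlap. For comparison, all 4 parous libraries lay above all 3 virgin libraries for 454 genes (4.31%) and below them for 531 genes (5.04%). A log2 difference above 0 was found for 50.2% of genes, and the median of all genes was 0.00. With 3 mice against 4, an exact two-sided permutation test of a single gene cannot go below p = 0.0571, so the order of libraries alone cannot reach 0.05.

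The casein genes stood out among the genes higher in parous basal cells. Of these, 3 were almost absent from the virgin libraries and present in every parous library, in mice whose pups had been removed and whose glands had involuted. Csn1s1 encodes alpha-S1 casein (chromosome 5 of GRCm39, 87814067 to 87830437, plus strand), Csn2 beta-casein (87840483 to 87847489, minus strand) and Csn1s2a an alpha-S2-like casein (87922426 to 87936656, plus strand), and all 3 lie in the casein cluster of chromosome 5. Their promoters, from the RefSeq promoter set on GRCm38.p6 (250 bases before to 50 after the start site), each hold one match to TTCNNNGAA, the palindrome that Stat5 is known to bind. The windows of 30 bases around it are shown 5′ to 3′ on the gene's strand, with the match in capitals, because these 3 genes gave the largest differences among the milk genes.
Csn1s1, chr5:87666098-87666127, plus strand, match beginning 100 bases upstream of the start site: tttgtaacaaTTCTTAGAAtttatgtaaaa
Csn2, chr5:87699499-87699528, minus strand, match beginning 93 bases upstream: tcacgtagacTTCTTGGAAttgaagggact
Csn1s2a, chr5:87774460-87774489, plus strand, match beginning 21 bases downstream: ttatagtgctTTCTTAGAAttacaatgact
The pattern TTCNNNGAA is its own reverse complement, so a search of one strand covers both, although the bases at its N positions differ between strands. It occurs in 2726 of 32851 promoters of this length (8.3%), and it is a description of letters, not of a bound site.

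Csn1s1 was read at 0, 8.27 and 0 normalized counts in the virgin libraries and at 176, 102, 27.9 and 85.3 in the parous libraries. The 8.27 of mouse 538 stands for 2 reads. The log2 difference was 5.29 (SE 0.81, limma adjusted p = 0.10), DESeq2 gave an adjusted p of 0.0129 and edgeR one of 0.0349. Summed over the libraries of a group, 204 reads in parous against 2 in virgin mice gave a ratio of 57.8 with a 95% counting interval of 15.8 to 480.1, which covers counting error only.

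Csn2 was at 0 in all 3 virgin libraries and at 77.4, 66.9, 3.98 and 22.8 in the parous ones. The value of 3.98, in mouse 557, is a single read. Set against a floor of 3 reads over the whole virgin group, the pooled parous level was at least 15.7-fold higher (83 reads in all). Csn1s2a was likewise at 0 in the virgin libraries and at 39.8, 40.1, 7.96 and 9.10 in the parous ones, when pooled at least 8.30-fold higher (44 reads). Both bounds pool reads over mice and do not cover the spread between them. Neither gene passed limma (adjusted p = 0.203 and 0.223), although for both genes each parous library held at least 1 read and the virgin libraries none.

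Csn3, kappa-casein, which stabilises the casein micelle, was detected in every library and its groups overlapped. It was read at 46.0, 57.9 and 16.3 in virgin and at 119, 74.9, 23.9 and 77.4 in parous mice, a log2 difference of 0.84 (SE 0.52, limma adjusted p = 0.620). Mouse 557 was the lowest of the parous mice for all 4 caseins. Lalba, which makes lactose possible, gave 0 in every virgin library and 2.09, 0, 3.98 and 0 in the parous libraries, or 1 read each in mice 532 and 557.

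**Figure D1:**
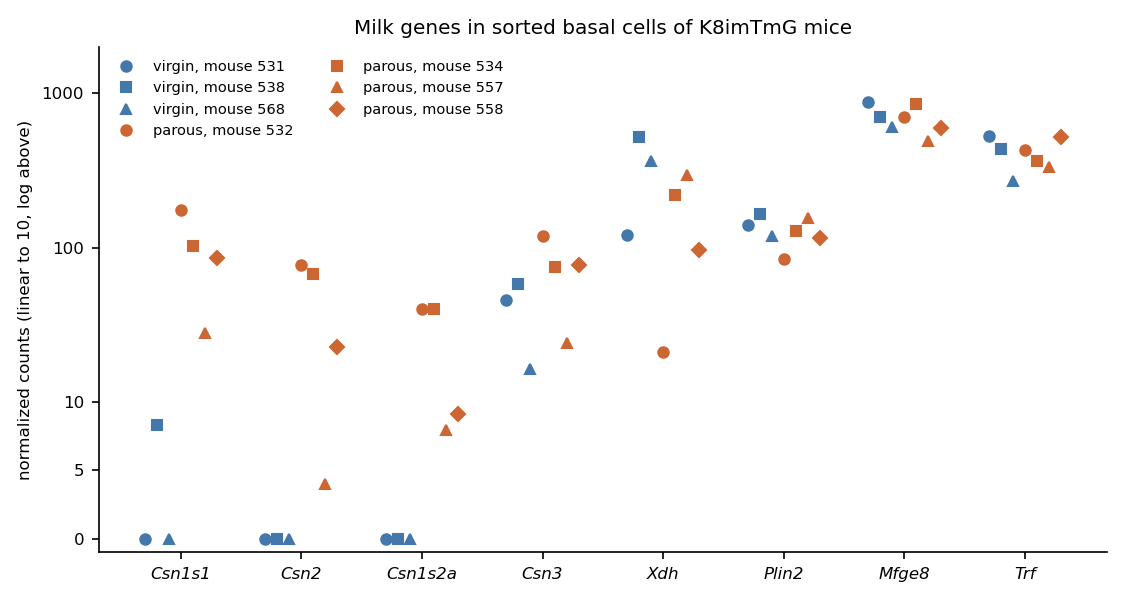
Normalized counts (linear below 10, log above) of 8 milk genes in each basal library, with virgin mice in blue and parous mice in orange. Csn1s1, Csn2 and Csn1s2a are at or near 0 in the 3 virgin libraries and above them in all 4 parous libraries, whereas Csn3, Xdh, Plin2, Mfge8 and Trf overlap.

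The rest of the milk list did not share this pattern. Of 24 genes listed for milk and lactation, 17 were in the table and 13 passed the filter on low values, and none was called by limma. Csn1s1, Csn2 and Csn1s2a (23.1% of those tested) were the members whose parous libraries all lay above the virgin ones, as did 4.31% of all genes. These 3 passed the filter only through parous libraries, so that share is a description only. Muc15 (7.69%) lay below in all libraries, as did 5.04% of all genes, at 54.6, 53.7 and 48.9 against 46.0, 21.4, 35.8 and 37.5. Of the 13, 7 had a difference above 0 with a median of 0.03, close to the 0.00 of all genes. The median was the same with Csn2 and Csn1s2a set at their bounds. Xdh, needed for the milk fat globule, was read at 121, 521 and 364 in virgin and 20.9, 219, 295 and 96.7 in parous libraries, and Spp1, osteopontin, at 35.9, 70.3 and 21.7 against 12.6, 16.0, 27.9 and 7.96. Ltf, the iron binder lactoferrin, lay at 25.9, 20.7 and 16.3 against 2.09, 8.02, 0 and 22.8. None of these passed the test, and Mfge8, Trf and Plin2 had overlapping groups and differences of -0.15 (SE 0.22), 0.03 (SE 0.24) and -0.25 (SE 0.25).

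Luminal cells hold far more casein mRNA, so the casein level of each basal library was set beside that of the luminal library from the same mouse. In the 4 parous mice the basal level of Csn1s1 was 6.60%, 2.78%, 1.11% and 3.77% of the luminal level, that of Csn1s2a 5.73%, 3.27%, 1.89% and 2.35%, and that of Csn2 8.72%, 3.42%, 0.537% and 3.39%, each in the order of mice 532, 534, 557 and 558. Mouse 532 was highest and mouse 557 lowest for all 3. Luminal keratins and surface genes spread more widely around these shares. Krt8 in basal libraries was 23.6% to 31.5% of its luminal level and Krt18 5.13% to 9.47%, whereas Cldn4, a tight-junction gene of luminal cells, was 1.15% to 2.64% and Prlr, the prolactin receptor, 0.334% to 9.23%. Over 26 luminal markers the median share was 4.42%, 17.7%, 2.18% and 3.79% in the same order of mice. All 3 casein shares were thus above the median luminal marker share in mouse 532 and below it in mice 534, 557 and 558. That median mixes unlike genes: Lcn2 was at 48.4% to 92.3% in the parous mice, and Foxa1 at 223% in mouse 534. The part that luminal RNA in the basal sort plays in the casein reads was not tested. The luminal libraries of mice 532, 534 and 558 have Clec2d below 30 and that of mouse 557 has it above 30, so the shares also compare libraries from both sides of that division.

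**Figure D2:**
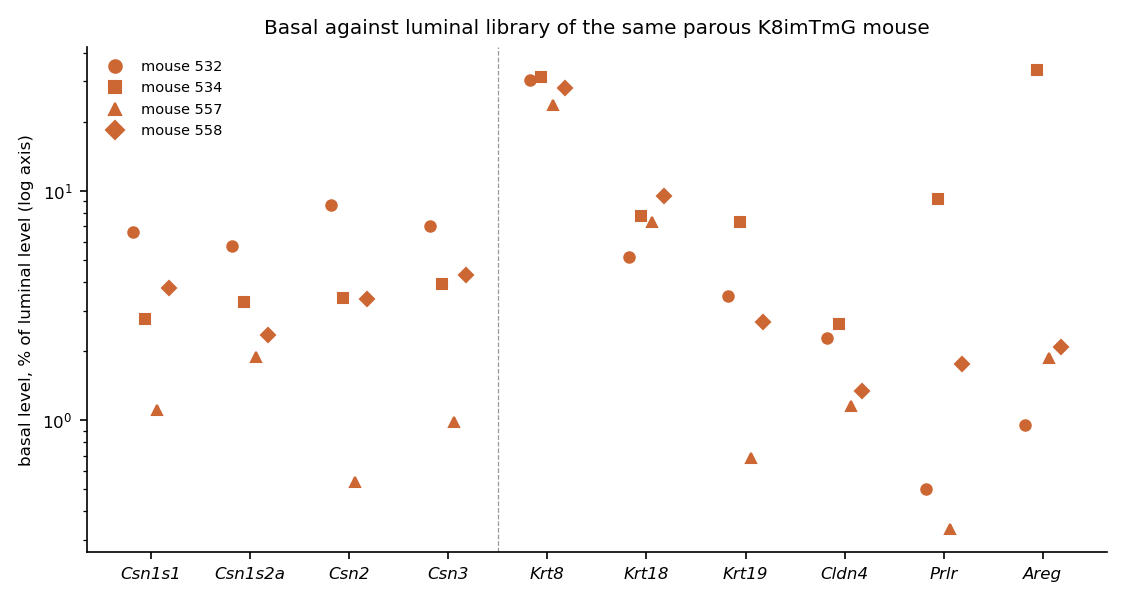
Basal level as a percent of the luminal level in the same parous mouse (log axis) for 4 caseins and 6 luminal markers, 1 symbol per mouse. Casein shares lie between 0.537% and 8.72%, Krt8 between 23.6% and 31.5%, and Cldn4 between 1.15% and 2.64%.

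The parity differences of basal and luminal cells were then set against each other. In a fit over the 15 K8imTmG libraries, with 3 virgin and 5 parous luminal libraries added, the fitted log2 difference of Csn1s2a was 4.30 in basal and 8.92 in luminal cells, which differed by -4.62 (SE 0.85, limma adjusted p = 0.0421). Csn1s2a was at 0 in every virgin basal library and in the luminal libraries of virgin mice 531 and 538, so these values reflect how much casein mRNA the parous cells of each lineage held and do not rank the parity change itself. Csn1s1 and Csn2 had differences of -2.90 (SE 0.89) and -4.30 (SE 1.16) between lineages that did not pass the test (limma adjusted p = 0.215 and 0.169). Of 10986 genes, 14 (0.127%) were called in this comparison. All 3 virgin luminal libraries have Clec2d below 30, whereas the parous luminal libraries of mice 494 and 557 have it above 30. The luminal parity differences given here therefore partly carry that division, which the basal ones do not. Itgb8, an integrin subunit that activates latent Tgf-beta, was also among the 14 called. Its basal difference was -0.78 against a luminal one of 1.44 (limma adjusted p = 0.0458). Spp1, Lpl and Muc15, also called, were picked out after their values were seen. Their basal differences were -1.32, -1.02 and -0.61 where the luminal ones were 5.38, 3.18 and 2.19 (limma adjusted p = 0.0136, 0.0374 and 0.0421). Between 0 and 31 genes were called when 1 mouse was left out, with 0 without mouse 531, 532 or 558 and 31 without mouse 494, a parous mouse with a luminal library only. Leaving out mouse 538, 557, 533, 534 or 568 left 2, 3, 4, 4 and 7 calls.

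Apart from the caseins, the genes highest in parous relative to virgin mice were a mixed group. Serpinb11, a serpin of epithelia (chromosome 1 of GRCm39, 107288928 to 107308208), was read at 1.44, 0 and 0 in virgin and at 77.4, 187, 7.96 and 11.4 in parous libraries (log2 difference 4.73, SE 1.03, limma adjusted p = 0.203). Over the groups, 119 parous reads against 1 virgin read gave a ratio of 67.4, with a 95% counting interval of 11.9 to 2684. This interval covers counting error only, and Serpinb11 passed the low-value filter only through parous libraries. Most of its parous reads came from mice 532 and 534. Ube2l6, which conjugates the ubiquitin-like Isg15, was read at 11.5, 0 and 0 against 58.6, 48.1, 151 and 22.8 (log2 difference 4.62, SE 0.88, limma adjusted p = 0.186). DESeq2 and edgeR gave Ube2l6 smaller log2 differences, 3.78 and 3.26. Hp, the acute-phase haemoglobin binder haptoglobin, was read at 11.5, 16.5 and 5.43 against 105, 29.4, 55.7 and 43.2, and DESeq2 called it (adjusted p = 0.0499).

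Steadier differences were seen in genes of moderate level. Kctd14 was read at 24.4, 45.5 and 10.9 against 119, 126, 127 and 67.1 (DESeq2 adjusted p = 0.00922), and Cdca7, a Myc- and E2f-responsive gene, at 58.9, 57.9 and 65.2 against 161, 294, 163 and 105 (DESeq2 adjusted p = 0.0241). Nrg2, a neuregulin ligand of ErbB receptors, was read at 43.1, 45.5 and 21.7 against 132, 123, 91.6 and 70.5 (log2 difference 1.51, SE 0.33, limma adjusted p = 0.203). Nrg1, another neuregulin, lay at 25.9, 66.1 and 10.9 against 67.0, 99.0, 43.8 and 44.4, with overlapping groups. Serpinf1, the anti-angiogenic factor PEDF, was read at 38.8, 37.2 and 16.3 against 126, 96.3, 71.7 and 79.6 (limma adjusted p = 0.203), although it stands on the fibroblast marker list whose other members were mostly lower. The mitochondrial proteins C1qbp and Gcsh completed the 12 genes of this direction together with Nkd2, described with the Wnt genes.

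On the other side, Ly6a, which encodes the surface antigen Sca1 (chromosome 15 of GRCm39, 74863840 to 74869880, minus strand), was lower in every parous mouse. It was read at 274, 236 and 158 in virgin and at 60.7, 69.5, 95.6 and 68.3 in parous libraries, a log2 difference of -1.57 (SE 0.25, limma adjusted p = 0.117, DESeq2 0.00051, edgeR 0.0349). Slc12a2, the sodium-potassium-chloride cotransporter, was read at 315, 405 and 103 against 33.5, 50.8, 27.9 and 72.8 (log2 difference -2.43, SE 0.44, limma adjusted p = 0.174, edgeR 0.0349). Ly6a also stands on the luminal marker list described below, and for both genes the lowest virgin value was in mouse 568.

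Among the 12 genes of this direction were both plasminogen activators, of which DESeq2 called Plat and not Plau. Plat, tissue plasminogen activator, was read at 468, 298 and 484 against 180, 99.0, 227 and 142 (log2 difference -1.39, SE 0.28, DESeq2 adjusted p = 0.00477), and Plau, urokinase, at 86.2, 82.7 and 76.1 against 27.2, 26.7, 19.9 and 41.0 (log2 difference -1.52, SE 0.31, limma adjusted p = 0.186). Both generate plasmin, which degrades matrix in involution. C1s1, a complement protease, was read at 96.2, 107 and 152 against 46.0, 34.8, 19.9 and 48.9. Aif1l, an actin-binding protein, was read at 122, 141 and 114 against 37.7, 58.8, 23.9 and 31.9 (limma adjusted p = 0.151, edgeR 0.0477). That no parous library reached the lowest virgin library was a condition for naming the 12 genes of this direction. It held for 5.04% of all genes. AC160336.1, a clone-named gene with no entry under that name in the GENCODE vM39 annotation, had the lowest unadjusted p, at 937, 1314 and 2027 against 421, 417, 326 and 183.

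**Figure D3:**
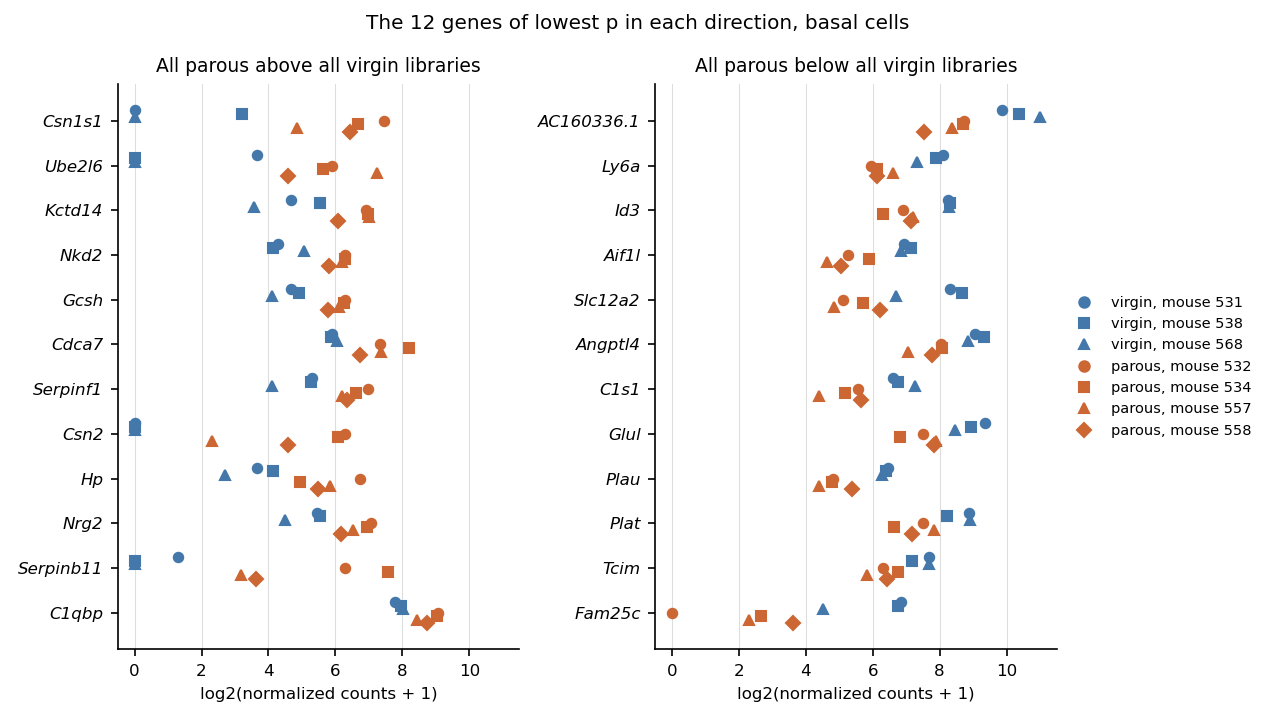
log2(normalized counts + 1) in each of the 7 basal libraries for the 12 genes of lowest unadjusted p in each direction whose groups do not overlap, virgin in blue and parous in orange. Csn1s1 has a parous-minus-virgin difference of 5.29 and Ly6a one of -1.57, and none of the 24 genes passed limma's adjusted threshold.

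Id genes, which encode inhibitors of basic helix-loop-helix transcription factors and are targets of Bmp and Tgf-beta signals, went in opposite directions. Id3 (chromosome 4 of GRCm39, 135870808 to 135873066) was read at 302, 318 and 310 in virgin and at 119, 77.6, 147 and 140 in parous libraries. Its log2 difference was -1.39 (SE 0.24, limma adjusted p = 0.145, edgeR 0.0477), and its virgin values were nearly equal. Id1 lay at 81.9, 70.3 and 81.5 against 27.2, 16.0, 15.9 and 46.6 (log2 difference -1.66, SE 0.38, limma adjusted p = 0.229). Id4, which basal cells need for ductal growth, was higher in all parous mice, at 1975, 1546 and 1054 against 2792, 3654, 3189 and 2336 (log2 difference 1.00, SE 0.24, limma adjusted p = 0.243, DESeq2 0.0262). Id2 stood at 271, 265 and 272 against 383, 278, 283 and 386. Around them, 28 of 33 listed Tgf-beta, Bmp and Id genes were tested, with a median of -0.13. In all parous libraries 2 (7.14%) were above and 5 (17.9%) below the virgin range, where 4.31% and 5.04% of all genes were, and Fst, follistatin, and Acvr2a, an activin receptor, were among the lower ones, with differences of -0.61 (SE 0.22) and -0.71 (SE 0.27).

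The cell cycle list had the highest median of all lists, and it came from 2 mice. Of 40 tested members 35 had a difference above 0, against 50.2% of all genes, and the median was 0.89. Some members, Mki67, Rrm2, Tk1 and Mcm2 among them, were under 10 in every virgin library. They passed the low-value filter only through parous libraries, which favours differences above 0, so this count and median are descriptions only. Summed normalized counts of the list were 3388, 3798 and 2299 in virgin mice and 5266 and 8048 in parous mice 532 and 534, but 2250 and 2792 in parous mice 557 and 558. Without mice 532 and 534 the median was -0.21 and 15 of 40 members were above 0, an alternative chosen after seeing the data. Mki67, the proliferation antigen, was read at 1.44, 0 and 0 in virgin mice and at 27.2, 61.5, 0 and 3.41 in parous mice. Top2a, which untangles replicated DNA, was read at 12.9, 49.6 and 5.43 against 153, 329, 7.96 and 14.8. High values were thus found in the same parous pair, and mice 557 and 558 lay within or near the virgin range.

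Of the 40 tested members, 2 (5%) lay above and 1 (2.5%) below in all libraries, near the 4.31% and 5.04% of all genes. Those above were Ccnd1 and Mcm2, and the one below was Cdkn1b. Ccnd1, cyclin D1, which drives the passage through G1 and is needed for alveolar growth, was read at 91.9, 95.1 and 43.5 in virgin and at 379, 350, 111 and 148 in parous libraries (log2 difference 1.56, SE 0.42, limma adjusted p = 0.325, DESeq2 0.0262). Mcm2, part of the replicative helicase, was read at 5.75, 0 and 0 against 33.5, 80.2, 7.96 and 13.7 (limma adjusted p = 0.308). Inhibitors of the cycle differed in direction, and limma called none. Cdkn1b, p27, lay at 253, 409 and 299 against 197, 203, 251 and 181, and Cdkn1a, p21, at 349, 269 and 70.6 against 81.6, 77.6, 47.8 and 91.0 with overlap through mouse 568 (DESeq2 adjusted p = 0.0256). Cdkn2c and Cdkn1c overlapped between the groups, with differences of 1.12 and -0.86. Whether cells were cycling cannot be read from these levels alone.

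**Figure D4:**
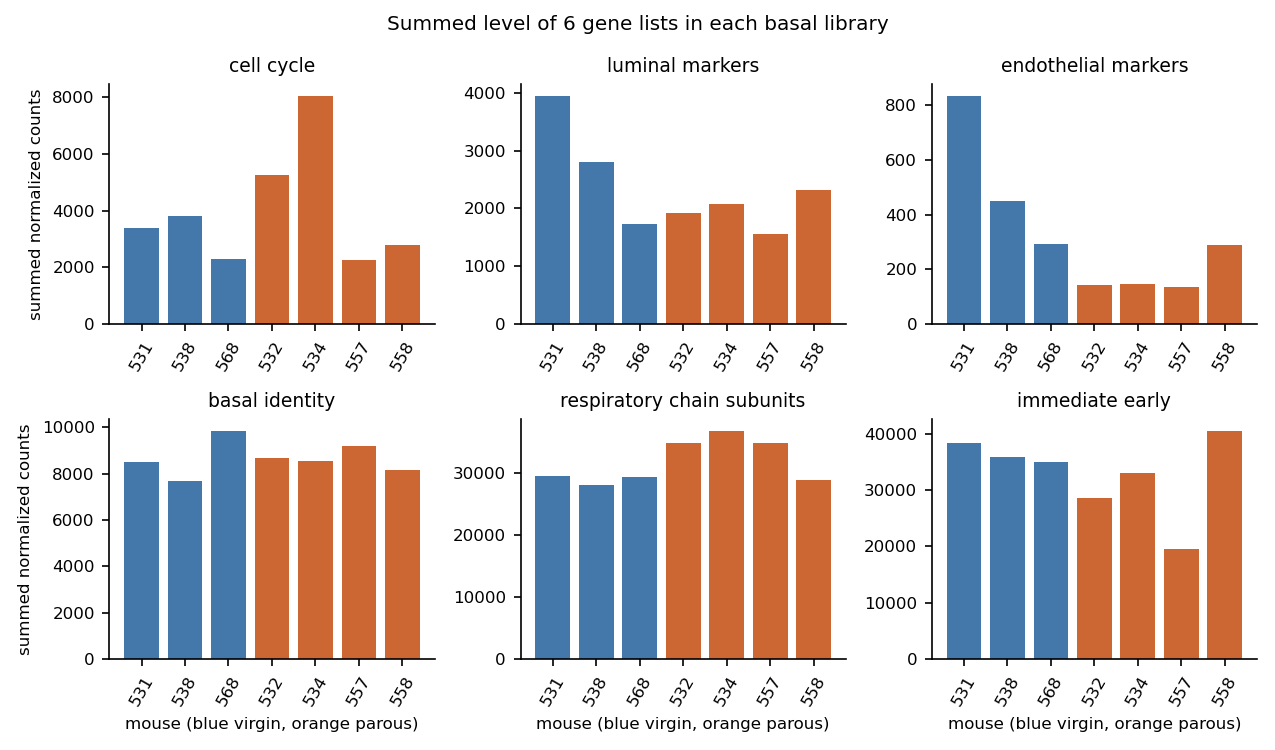
Summed normalized counts of 6 gene lists in each basal library, from 0, with virgin mice in blue and parous mice in orange. Cell cycle genes reach 5266 and 8048 in mice 532 and 534 but 2250 and 2792 in mice 557 and 558, endothelial markers lie at 293–835 in virgin and 135–288 in parous libraries, and basal identity genes overlap.

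Markers of other cells were lower in parous basal libraries. Endothelial markers had the lowest median of any list with several members, -1.67: 0 of 9 tested were above 0 and 5 (55.6%) lay below all virgin libraries, as did 5.04% of all genes. Their summed level was 293 to 835 in virgin and 135 to 288 in parous mice. Pecam1, the CD31 antigen itself, which the sort excluded, was read at 67.5, 103 and 21.7 against 16.7, 10.7, 15.9 and 19.3. Cldn5, the endothelial tight-junction claudin, was read at 115, 28.9 and 21.7 against 6.28, 0, 3.98 and 7.96 (log2 difference -3.34, SE 0.84, limma adjusted p = 0.274, DESeq2 0.0061). Cldn5 passed the low-value filter only through virgin libraries, which favours differences below 0. The median and counts of the endothelial list are therefore descriptions only. In a sorted population, fewer cells of a type and less RNA per cell cannot be told apart.

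Luminal markers followed, with a median of -0.87. Of 21 tested, 3 (14.3%) were above 0 and 6 (28.6%) were below in all libraries, against 50.2% and 5.04% of all genes. Their summed level was 1728 to 3944 in virgin and 1565 to 2323 in parous mice. Cldn4, Prom1 and Krt7 passed the low-value filter only through virgin libraries, which favours differences below 0. The median and counts of this list are therefore descriptions only. Krt18 was read at 214, 207 and 76.1 against 50.2, 66.9, 87.6 and 130, and Prlr at 260, 252 and 38.0 against 4.19, 42.8, 7.96 and 41.0. Cldn4 stood at 71.8, 41.3 and 10.9 against 6.28, 8.02, 3.98 and 6.83 (DESeq2 adjusted p = 0.0406). In these genes mouse 568 was the lowest of the virgin mice and near or within the parous range, and mice 531 and 538 were high. Elf5, the regulator of alveolar milk-producing cells, was near its floor throughout, at 4.31, 0 and 0 against 8.37, 2.67, 3.98 and 5.69, and Muc1 was at 0 in 5 of the 7 libraries. Krt8 overlapped, at 664, 351 and 201 against 329, 313, 247 and 339. Several of these markers also had negative parity differences in luminal cells, with luminal log2 differences of -2.13 for Prlr, -1.05 for Krt18, -1.27 for Cldn4 and -2.82 for Ly6a. Others were higher in parous luminal cells. Elf5 stood at 119 and 56.7 in the luminal libraries of virgin mice 531 and 538. In those of parous mice 532, 534, 557 and 558 it lay at 160 to 345. Muc1 stood at 64.1 and 56.7 against 123 to 173 in the same mice. These luminal values partly carry the Clec2d division.

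Stromal and blood markers had medians below 0, but their summed levels overlapped between the groups. Fibroblast markers had a median of -0.73 (3 of 11 above 0, summed level 1082 to 1095 in virgin and 821 to 1115 in parous mice), although Dcn, decorin, which makes up much of that sum, stood at 549, 517 and 533 against 559, 677, 502 and 464. Pericyte markers had a median of -0.80 (1 of 4 above 0, 315 to 417 against 167 to 398) and immune markers one of -0.44 (2 of 8 above 0, 141 to 274 against 123 to 205). The red cell gene Hbb-bs was at 0 in parous mice 532 and 534. Fabp4, a fatty-acid carrier of fat cells and capillaries, was read at 2587 in virgin mouse 531, against 442 and 440 in the other virgin mice and 170 to 449 in the parous mice. The part of cells other than basal cells in the lower genes above, Ly6a, Slc12a2 and Plat included, was not tested.

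Genes of the contractile apparatus did not share a direction. Of 23 tested, 14 were above 0 with a median of 0.08, and none was called. Oxtr, the oxytocin receptor through which milk ejection is triggered, was read at 366, 364 and 543 in virgin and at 507, 404, 713 and 594 in parous libraries (log2 difference 0.38, SE 0.23, limma adjusted p = 0.613). Tagln, a smooth-muscle actin-binding protein, and Csrp1 had differences of -0.53 (SE 0.23) and -0.57 (SE 0.26) with overlapping groups.

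Wnt signals maintain basal stem cells, and the list held genes of both directions around a median of 0.00. Of 38 tested members, 6 (15.8%) lay above and 3 (7.89%) below in all libraries, where 4.31% and 5.04% of all genes did. Nkd2, a feedback inhibitor of Dishevelled, was read at 18.7, 16.5 and 32.6 in virgin and at 77.4, 77.6, 71.7 and 54.6 in parous mice (log2 difference 1.64, SE 0.32, limma adjusted p = 0.186). Tcf7, a transcription factor of the pathway, was read at 33.0, 12.4 and 27.2 against 64.9, 104, 67.7 and 36.4 (log2 difference 1.47, SE 0.41). Both lay above in every parous mouse.

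Lrp6, the Wnt co-receptor, lay at 200, 161 and 136 against 92.1, 93.6, 91.6 and 127 (log2 difference -0.70, SE 0.23). Procr, the protein C receptor, and Lgr5, the R-spondin receptor, both used as markers of mammary stem cells, had differences of -1.49 (SE 0.50) and -0.89 (SE 0.32), and Lgr5 overlapped between the groups. Axin2, a general readout of the pathway, had overlapping groups, at 27.3, 12.4 and 32.6 against 33.5, 50.8, 27.9 and 36.4. None of the Wnt genes passed limma, DESeq2 or edgeR. The Notch list had a median of 0.03 and none of its 21 tested members reached an unadjusted p below 0.05.

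Rank (Tnfrsf11a), intact in these mice, was similar in virgin and parous basal cells. It was read at 66.1, 33.1 and 54.3 against 75.4, 50.8, 55.7 and 69.4 normalized counts (log2 difference 0.33, SE 0.30, limma adjusted p = 0.741). Its ligand Rankl (Tnfsf11), made by luminal cells, gave 1 read in mouse 531 and none in the other 6. Tnfrsf11b, the decoy receptor osteoprotegerin, was read at 43.1, 37.2 and 16.3 against 64.9, 50.8, 19.9 and 41.0. Of 30 Rank and NF-κB genes tested, 17 were above 0 with a median of 0.10 and none reached an unadjusted p below 0.05. Relb, of the non-canonical arm that Rank feeds, was at 288 in virgin mouse 568 and between 37.5 and 69.5 in the other 6 libraries.

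Matrix genes were more often lower, with 13 of 38 above 0 and a median of -0.13. Timp3, the matrix-bound metalloproteinase inhibitor, was read at 1817, 2463 and 3103 in virgin and at 1220, 1356, 1752 and 1403 in parous libraries (log2 difference -0.76, SE 0.21, limma adjusted p = 0.366). Laminin alpha chains of the basement membrane differed in direction: Lama5 lay at 101, 82.7 and 130 against 54.4, 53.5, 75.6 and 34.1, and Lama1 at 47.4, 37.2 and 43.5 against 77.4, 90.9, 67.7 and 69.4. Itga6, the CD49f antigen used in the sort, was read at 965, 938 and 886 against 1097, 1474, 1055 and 1049 (log2 difference 0.32, SE 0.18). As a gate of the sort, its level is no finding on its own. The 11 tested integrins had a median of -0.22.

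Growth factor genes had a median of -0.24, with 9 of 30 above 0. Igfbp7, an insulin-like growth factor binder also abundant in vessels, was read at 901, 612 and 1114 against 471, 439, 426 and 481 (log2 difference -0.90, SE 0.21, limma adjusted p = 0.229, DESeq2 0.0281). Pdgfa, which signals to stromal Pdgfra, was higher in all parous mice, at 388, 273 and 293 against 643, 463, 482 and 717 (log2 difference 0.85, SE 0.21, limma adjusted p = 0.274). Hbegf, an Egfr ligand, was read at 142, 112 and 48.9 against 39.8, 29.4, 35.8 and 61.4, with overlap.

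Lipid genes went in both directions. Of 30 tested, 4 (13.3%) lay above and 4 (13.3%) below in all libraries, where 4.31% and 5.04% of all genes did. Not every member that lay below is named here. Sqle, the squalene epoxidase of sterol synthesis, was read at 60.3, 33.1 and 43.5 in virgin and at 96.3, 77.6, 87.6 and 109 in parous mice (log2 difference 1.04, SE 0.27, limma adjusted p = 0.308). The regulators Srebf1 and Srebf2 and fatty acid synthase (Fasn) also lay above in all libraries, with differences of 1.28 (SE 0.41), 0.44 (SE 0.20) and 0.62 (SE 0.26). Cd36, Lpl and Dgat2, which take up and store fat, lay below, with differences of -1.72 (SE 0.53), -1.02 (SE 0.33) and -1.91 (SE 0.56). Of these 7, DESeq2 called Cd36 (adjusted p = 0.0256) and gave no adjusted p to Dgat2. Cd36 was highest in virgin mouse 531 at 349, the mouse with the high Fabp4, against 62.0 and 76.1 in the other virgin mice. The list had 21 of 30 members above 0 and a median of 0.21.

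Nuclear genes of the mitochondrial respiratory chain, assembly factors included, showed a small shift shared by most of the list. Of 87 tested, 81 had a difference above 0 (93.1%, against 50.2% of all genes), the median was 0.29, and 13 (14.9%) lay above in all libraries while 0 lay below, against 4.31% and 5.04% of all genes. Uqcr11, a complex III subunit, was read at 251, 273 and 272 against 534, 441, 450 and 330 (log2 difference 0.70, SE 0.20, limma adjusted p = 0.366), and Ndufab1, the acyl carrier protein of complex I, at 389, 508 and 576 against 735, 920, 756 and 586. Summed over the list, parous mice 532, 534 and 557 stood at 34901 to 36896, mouse 558 at 28973, and the virgin mice at 28061 to 29526. Mouse 558 therefore lay within the virgin range.

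Genes of the mitochondrial genome did not share that shift. Their median was -0.06 with 8 of 23 above 0, and mt-Co2, a complex IV subunit, was read at 405, 343 and 277 against 253, 171, 187 and 188 (log2 difference -0.77, SE 0.21). Ribosomal protein genes had a median of -0.10 with 26 of 82 above 0. The mitochondrial chaperonin Hspe1 was higher, at 655, 591 and 598 against 1024, 1337, 1019 and 766 (log2 difference 0.73, SE 0.20, limma adjusted p = 0.349), while the heat shock list as a whole had a median of -0.16.

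Immediate early genes, which respond within minutes to cell dissociation, were lower as a list, with 5 of 24 above 0 and a median of -0.34. Ccn2, connective tissue growth factor, was read at 1244, 649 and 1864 against 83.7, 605, 287 and 694, and Jund at 1227, 1244 and 1848 against 1147, 942, 948 and 1078. Their summed level was 19489 in parous mouse 557 and 40553 in parous mouse 558, the lowest and the highest of all 7 libraries, with the virgin mice at 35000 to 38430. Interferon and antigen presentation genes had a median of -0.17, with 10 of 28 above 0. Bst2, an interferon-induced membrane protein, was read at 157, 161 and 81.5 against 85.8, 80.2, 55.7 and 51.2.

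**Figure D5:**
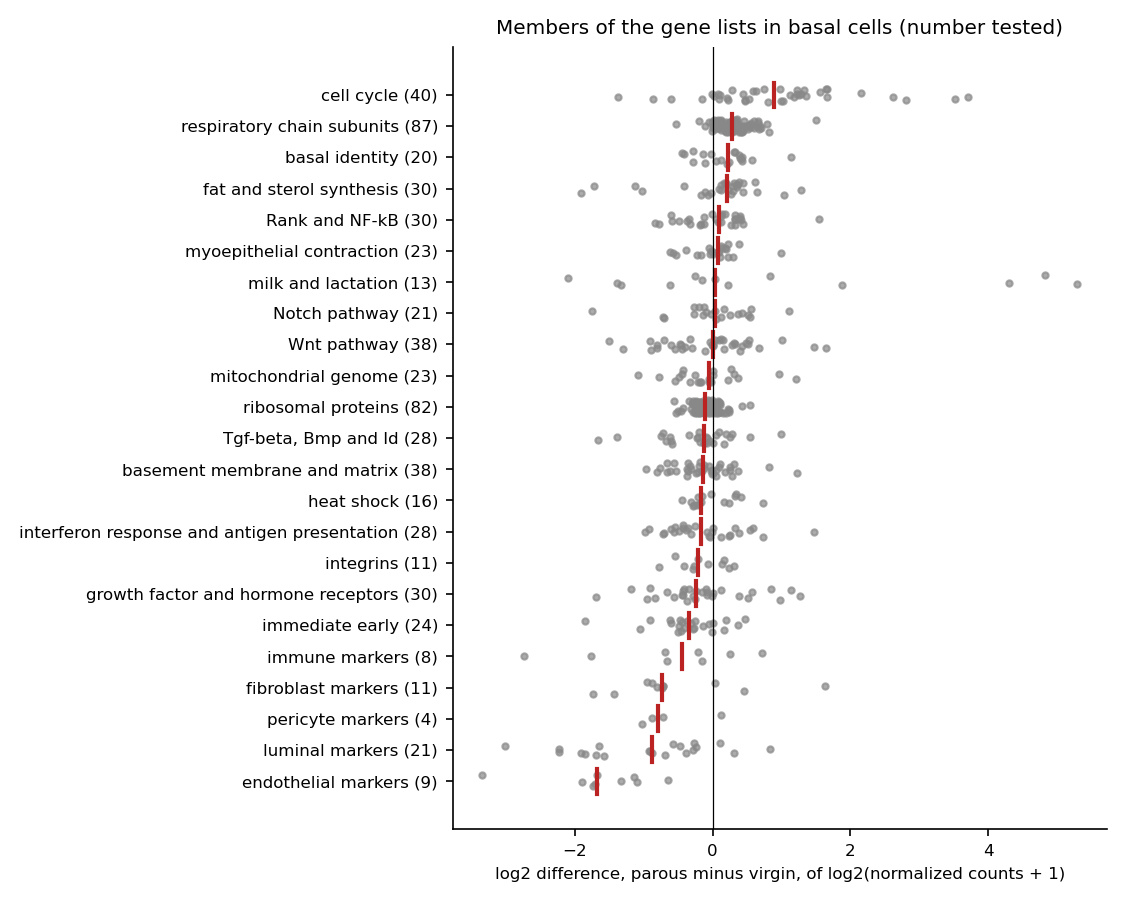
Parous-minus-virgin log2 difference of each tested member (grey points) and list median (red bar) for the 23 lists with at least 4 tested members, with the number tested in parentheses. Medians range from -1.67 for endothelial markers to 0.89 for cell cycle genes, and the median of all 10538 genes is 0.00.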

How the data were processed

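Basal cells of 3 virgin and 4 parous K8imTmG mice were sequenced by QuantSeq 3′ mRNA-seq with unique molecular identifiers. The authors trimmed reads with BBDuk, removed duplicates with UMI-tools, aligned to GRCm39 with Bowtie2, counted over Gencode vM26 and deposited normalized counts (signal values, gene counts divided by DESeq2 size factors) for 11137 genes. They state a sense-stranded kit, and the strand setting of the counting is not given in the sources used here. RNA was read from its 3′ ends. Levels were compared between libraries for the same gene or list, not between genes.

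All values were whole multiples of 1 step per library (100% within 0.1 of a read), so reads were recovered. The low-value filter, above 10 in at least 2 of the 7 libraries (25%), left 10538 genes. limma 3.58.1 with a mean-variance trend was fitted to log2(normalized count + 1), with Benjamini-Hochberg adjustment at 0.05. DESeq2 1.42.0 and edgeR 4.0.16 on recovered reads were alternatives, in R 4.3.3. Figures used matplotlib 3.10.9. Levels at 0 were set against a floor of 3 reads over the group. Tests were tried on simulated data.

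The 12 genes per direction with the lowest p whose groups do not overlap, the 3 members of lowest p in each list, and a fixed set of casein, keratin, Rank and basal genes were named. Others were named after their values were seen. The members and lists were chosen with earlier results of these data known. Coordinates are those of GENCODE vM39 on GRCm39. Promoters are RefSeq sequences on GRCm38.p6, in which 3 of the 4 caseins had an entry. The same mouse numbers in both lineages mark the same animal, so mouse was tried as a block in the comparison of lineages.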

Additional observations from a re-analysis of the deposited data

Results flagged for a closer look

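In 5 of the 98 named genes, 1 parous library stood apart from the other 3 by more than Dixon's 95% limit for the gap relative to the group's range, which about 1 group in 20 passes by chance. The gap was 0.866 of the range for Kctd14, with mouse 558 low, 0.922 for C1qa, with mouse 557 high, and 0.943 for Lrp6, with mouse 558 high. It was 0.88 for Rel, with mouse 558 high, and 0.887 for Itga6, with mouse 534 high. C1qa, a macrophage complement gene, was read at 43.8 in mouse 557 and at 0, 2.67 and 3.41 in the other parous mice.

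The parity difference of Csn1s2a and Itgb8 differed between basal and luminal cells by -4.62 and -2.22 on the log2 scale (limma adjusted p = 0.0421 and 0.0458). Csn1s2a was at 0 in every virgin basal library and in the luminal libraries of virgin mice 531 and 538, so its value sets the parous levels of the lineages apart and does not rank their parity changes. For Itgb8 the basal difference was below 0 and the luminal one above it. The luminal differences of both genes partly carry the Clec2d division described above.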

How the results depend on the processing

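Between 0 and 5 genes were called by limma when 1 mouse was left out (0 to 2 higher and 0 to 3 lower in parous mice), with 5 without parous mouse 557, 4 without virgin mouse 531, and 1 each without virgin mouse 538 or 568. A pseudocount of 4 and thinning to the shallowest library each called 2 genes, 1 higher and 1 lower. DESeq2 called 44 (7 higher, 37 lower) and edgeR 8 (1 higher, 7 lower). Without virgin mice 531 and 538, chosen after seeing the data, 95 were called (83 higher, 12 lower), but the single virgin library left is then assumed to vary like the parous ones. No other setting called any. The cause of these differences was not tested. Genes whose differences were near 0 changed sign. Acta2 was at -0.0048 with DESeq2, -0.0351 after thinning, -0.13 without mice 532 and 534 and -0.17 without mice 531 and 538. Trp63 was at 0.034 with quantile normalization, 0.033 with array weights, 0.025 with DESeq2, 0.047 with edgeR and 0.19 after thinning. With 1 mouse left out, the ranges were -0.20 to 0.13 for Acta2, -0.13 to 0.13 for Trp63, -0.0356 to 0.10 for Krt5 and -0.66 to 0.20 for Krt8. Without mice 531 and 538 the differences were -0.073 for Krt5, 0.60 for Krt8, 0.048 for Krt18, 0.11 for Rel and 0.043 for Bag3. The list medians of luminal and endothelial markers, respiratory chain subunits and immediate early genes kept their sign in all 18 alternatives, and that of cell cycle genes in 17. The medians near 0 of the milk, Wnt, Notch, mitochondrial genome, contraction and heat shock lists changed sign in 5, 12, 7, 5, 3 and 3 of them. These 18 alternatives did not include the setting limited to genes with a mean of at least 50 normalized counts.

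For the comparison of lineages, 28 genes were called with mouse as a replicate block (14 without it), 78 with luminal libraries of Clec2d below 30 only, 179 with array weights, and 0 to 31 with 1 mouse left out. Depth limits genes under about 16 normalized counts in mouse 568, where 3 reads are worth 16.3.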

Other observations

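Genes known to be induced by glucocorticoids, the hormones that with prolactin maintain lactation, were listed after values had been seen, so their counts are a description only. Of 15 tested, 2 had a difference above 0, 5 (33.3%) lay below in all libraries, as did 5.04% of all genes, and the median was -0.98. Tsc22d3, the leucine zipper GILZ, was read at 165, 103 and 163 in virgin and at 41.9, 42.8, 51.8 and 86.5 in parous libraries. Klf9 was read at 679, 380 and 337 against 163, 227, 131 and 283 (DESeq2 adjusted p = 0.0402), and Glul, glutamine synthetase, at 661, 488 and 348 against 180, 112, 235 and 225 (DESeq2 adjusted p = 0.00285). Angptl4, an inhibitor of lipoprotein lipase, was read at 531, 645 and 456 against 264, 270, 131 and 218. Dusp1 and Ddit4, on the same list, had differences of 0.00 and 0.01, and Fkbp5 and Per1 overlapped. The summed level was 9560 to 14724 in virgin and 3743 to 10142 in parous mice, with mouse 558 in the virgin range.

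Lists of mitochondrial ribosomal proteins and proteasome subunits were also added after values were seen. Of 76 mitochondrial ribosomal protein genes 62 were above 0 with a median of 0.28, and of 37 proteasome genes 29 were above 0 with a median of 0.18. Among genes called by DESeq2, Ugt8a and Ncmap, both known from myelinating cells, were read at 107 and 207 in virgin mouse 538, against 12.9 and 28.7 in mouse 531 and 5.43 and 54.3 in mouse 568.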
